A study of Mus musculus with 16 samples.

Results

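The small RNAs left by 2 single-site mutants of human Dicer were compared directly: D1320A, a change in the RNase IIIA domain, and D1709A, a change in the RNase IIIB domain. The comparison took the libraries that the labels assign to these mutants, 2 of each, and so used 4 of the 16 libraries of the series, which fall into 8 groups of 2. Small RNA was sequenced from mouse mesenchymal stem cells of the C57BL/6 strain, cells of the connective tissue lineage that can form bone, cartilage and fat. Both mutants were introduced by transfection into Dicer -/- cells, so the cells of both groups lack mouse Dicer and carry only the mutant human protein. Of the other groups, Dicer -/- cells with mCherry (here knockout) and Dicer -/- cells with the double mutant D1320A/D1709A serve as the background, and Dicer -/- cells with unchanged human Dicer (hsDicer) and Dicer f/f cells with mCherry (wild type) serve as the reference. The labels do not state how the cells were derived, how many clones were used or how much of each mutant protein was made. The labels number the libraries 1 and 2 within a group without calling them separate cultures, so every p-value below measures only the spread between these libraries.

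Dicer is the enzyme that removes the terminal loop of a precursor miRNA, a short hairpin already freed at its base by Drosha. Its RNase III domains each cut a different strand: RNase IIIA cuts the strand that carries the 3p arm, RNase IIIB the strand that carries the 5p arm. Each freed arm can be loaded into an Argonaute protein, where the seed (bases 2 to 8) selects the mRNAs it represses. A precursor cut on one strand only would leave one free arm and one arm still joined to the loop. A change of RNase IIIA should spare the cut of the 5p strand, which would free the 5p arm and leave the loop joined to the 3p arm. A change of RNase IIIB should spare the cut of the 3p strand, which would free the 3p arm and leave the 5p arm joined to the loop. These libraries measure both kinds of product, and they also show which hairpins do not follow that arm rule.

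Shown first are the hairpins on which the results turn, from RefSeq for GRCm38.p6, with the arms most used in wild type in capitals and the flanks and loop in lower case. Mir31 (chr4:88910557-88910662, minus strand, inside an exon of AL805899.1) gave the most intermediate reads in both mutants. Mir22 (chr11:75463716-75463810, plus strand, inside exons of Mir22hg and Tlcd2) gave the most arm reads. Mir24-2 (chr8:84208815-84208921, plus strand, inside an exon of Gm26532) is a copy of miR-24. The reads of miR-24, pooled over Mir24-1 and Mir24-2, switched arms almost completely. Mir21a (chr11:86584067-86584158, minus strand, inside an exon of Vmp1) was read from its 5p arm with both mutants, as with hsDicer.
Mir31: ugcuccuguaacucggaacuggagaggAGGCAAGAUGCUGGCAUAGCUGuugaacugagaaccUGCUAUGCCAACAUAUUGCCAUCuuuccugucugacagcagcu
Mir22: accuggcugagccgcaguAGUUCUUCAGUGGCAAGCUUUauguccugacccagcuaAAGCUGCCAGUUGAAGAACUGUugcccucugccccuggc
Mir24-2: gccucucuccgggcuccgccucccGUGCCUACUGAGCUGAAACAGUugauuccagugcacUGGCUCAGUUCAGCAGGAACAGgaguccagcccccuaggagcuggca
Mir21a: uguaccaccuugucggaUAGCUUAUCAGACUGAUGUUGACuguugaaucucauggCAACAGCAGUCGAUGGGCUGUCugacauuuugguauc

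The mature miRNAs that led either mutant differ in their seeds, which are in capitals in the RefSeq sequences that follow. The first 5 are among the most abundant 5p arms with D1320A, and the last 3 are the 3 most abundant 3p arms with D1709A.
let-7c-5p: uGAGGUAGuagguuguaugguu
let-7i-5p: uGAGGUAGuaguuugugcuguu
miR-99b-5p: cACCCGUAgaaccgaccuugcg
miR-31-5p: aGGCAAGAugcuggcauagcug
miR-21a-5p: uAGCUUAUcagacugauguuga
miR-22-3p: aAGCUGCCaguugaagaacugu
miR-29b-3p: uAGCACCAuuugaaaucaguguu
miR-24-3p: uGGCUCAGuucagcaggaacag

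The D1320A libraries held 15104136 and 12176208 inserts of 15 nt or more, and the D1709A libraries 12800198 and 10357746. Levels are CPM, read counts divided by this number of inserts and scaled as usual. A library with no read of an arm could still hold up to 3 reads' worth, or 0.199 to 0.290 CPM. Such floors and the binomial intervals cover counting error only, since reads without molecular identifiers are not independent molecules. Adapter products took 22.9% and 10.9% of the D1320A inserts and 22.6% and 24.7% of the D1709A inserts, against 1.84% and 5.48% with hsDicer. All 20 mesenchymal and fibroblast miRNAs of a marker list were detected, with summed levels of 20247 and 11220 CPM with D1320A and 63900 and 32989 CPM with D1709A. Among markers of other cell types, miR-122 of liver was at 0 in the 4 libraries. Blood (2 of 6 detected under the names of the list) reached at most 9.997 CPM, neuron (3 of 5) 25.2 CPM and epithelium (2 of 6) 6.08 CPM. The blood count and level leave out miR-142, which the list calls miR-142a. It had 178 and 0 reads of its 5p arm with D1320A, and 28 and 131 reads of its 3p arm with D1709A. Of 4 muscle markers only miR-206 was detected, at 34.2 and 4.93 CPM with D1320A and 303 and 25.6 CPM with D1709A, with overlapping groups. Its 5p arm had 500 and 58 reads with D1320A and 0 and 0 with D1709A. Its 3p arm had 17 and 2 against 3881 and 265. miR-126a of endothelium was at 0.331 and 0 CPM with D1320A and at 101 and 41.5 CPM with D1709A. Of 14 markers of pluripotent cells only miR-294 was detected, at 0 and 0.0821 CPM with D1320A and 59.4 and 14.9 CPM with D1709A. The part of other cells in these differences was not tested, and in bulk RNA a change in cell number cannot be told apart from a change in RNA per cell.

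The mutants left opposite arms. Among all inserts, miRNA arms took 4.61% and 2.16% in the D1320A libraries, and in the D1709A libraries 7.44% and 3.74%. The spreads of the groups overlapped, and the difference of -2.21 percentage points gave an exact permutation p of 0.667. The same share was 38.1% and 14.4% with hsDicer, 1.54% and 0.293% in the knockout and 0.789% and 0.356% with the double mutant, so both single mutants stood between the unchanged enzyme and the background. Of the miRNA reads, 97.3% and 96.6% came from 5p arms with D1320A (mean 97.0% ± 0.543, SD, n = 2), against 3.63% and 4.62% with D1709A (mean 4.12% ± 0.697, SD, n = 2). The Wilson 95% intervals of these shares, such as 97.3% to 97.4% and 4.55% to 4.68%, are far narrower than the gap between the mutants. The difference was 92.8 percentage points, with no overlap between the groups. The exact 2-sided permutation p was 0.333, the smallest that 2 against 2 libraries allow. hsDicer gave 49.4% and 41.7% from 5p arms, and the knockout and the double mutant gave 65.8% to 72.7%.

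Summed over hairpins, 5p arms reached 44829 and 20890 CPM with D1320A, against 2703 and 1729 CPM with D1709A, 10667 and 1928 CPM in the knockout and 5738 and 2586 CPM with the double mutant. The 3p arms reached 71723 and 35711 CPM with D1709A, against 1226 and 742 CPM with D1320A, 4772 and 1004 CPM in the knockout and 2155 and 978 CPM with the double mutant. The summed level of the arm that each mutant should lose was therefore within or below the range of the cells without active Dicer.

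Arm by arm, the mutants were compared over 355 arms that had at least 20 reads summed over the 4 libraries (200 of 5p, 155 of 3p). edgeR's quasi-likelihood test with Benjamini-Hochberg adjustment called 85 at an adjusted p under 0.05, 23.9% of all arms tested. 47 of the 5p arms were higher with D1320A, 23.5% of those tested, and 0 were higher with D1709A. 37 of the 3p arms were higher with D1709A, 23.9% of those tested, and 1, or 0.645%, was higher with D1320A. Over both arms, 13.5% were higher with D1320A and 10.4% with D1709A. In each of the 85 called arms the groups did not overlap. The median log2 difference (D1320A minus D1709A) was 6.18 over the 5p arms, positive for 192 of 200, and -5.41 over the 3p arms, negative for 126 of 155. Of the 5p arms 123 were higher in both D1320A libraries than in either D1709A library, and 1 was higher in both D1709A libraries. Of the 3p arms, 81 were higher in both D1709A libraries and 5 in both D1320A libraries.

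The split between the groups moved with the scaling, because these levels depend on library size. Scaled by all inserts, 56.5% of the called arms were higher with D1320A. Scaled by TMM over the arms, 95 arms were called and 37.9% of them were higher with D1320A, and with DESeq2's size factors 134 were called and 18.7% were. The median of all arms, 3.65 on the log2 scale with insert scaling, moved by -1.25 with TMM and by -2.45 with DESeq2. A fit over all 16 libraries called 11 arms and limma-voom 27. The ratio of the arms within a hairpin does not depend on this choice, since both arms share a library's scale.

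**Figure D1:**
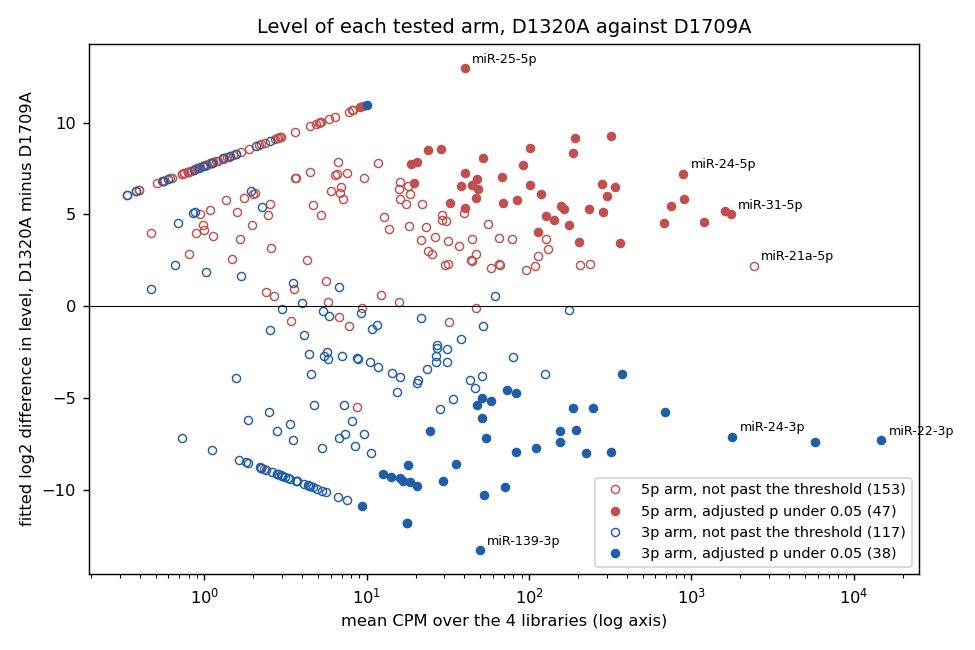
Fitted log2 difference in level, D1320A minus D1709A (vertical axis), against the mean CPM over the 4 libraries (horizontal axis, log scale), for the 355 tested arms, with 5p arms in red, 3p arms in blue and arms past the threshold filled (47 of 5p and 38 of 3p). Called 5p arms lie above 0 and called 3p arms below it except 1, and the points on the slanted edges are arms with no read in one of the groups.

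Among 3p arms, the D1709A libraries were led by miR-22-3p, a miRNA abundant in fibroblasts. It stood at 235 and 135 CPM in the D1320A libraries and at 34855 and 24089 CPM in the D1709A libraries. That is 159-fold higher with D1709A (log2 difference -7.31 ± 1.08 SE, edgeR adjusted p = 1.1e-08). miR-29b-3p, which represses collagen and other matrix genes, was at 99.9 and 36.9 CPM with D1320A and at 18134 and 4717 CPM with D1709A, 167-fold higher (edgeR adjusted p = 1.21e-07). miR-24-3p was at 30.7 and 20.3 CPM with D1320A and at 5392 and 1708.6 CPM with D1709A, 139-fold higher (edgeR adjusted p = 5.9e-06). The opposite arm of the same precursors, miR-24-5p, was at 2240 and 1303 CPM with D1320A and at 8.52 and 15.2 CPM with D1709A, 150-fold higher with D1320A (edgeR adjusted p = 1.8e-05). The passenger strand of miR-22, miR-22-5p, was at 781 and 328 CPM with D1320A and at 0.781 and 10.2 CPM with D1709A. Within the miR-24 and miR-22 hairpins, then, opposite arms were high with the 2 mutants. let-7d-3p was the remaining 3p arm among the 10 most abundant called arms, at 26.4 and 22.4 CPM with D1320A and 1747 and 941 CPM with D1709A, 55.0-fold higher (edgeR adjusted p = 0.000363).

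Among 5p arms, miR-99b-5p was at 4479 and 1770 CPM with D1320A and at 122 and 47.9 CPM with D1709A, 36.7-fold higher with D1320A (edgeR adjusted p = 0.000346). miR-31-5p was at 4193 and 2620 CPM against 92.0 and 121 CPM, 32.0-fold higher (edgeR adjusted p = 0.000424). Its 3p partner did not follow the same pattern: miR-31-3p was at 183 and 143 CPM with D1320A and at 293 and 85.2 CPM with D1709A, with overlapping groups (edgeR adjusted p = 0.895). The let-7 miRNAs, which repress growth and stem cell genes such as Lin28 and Hmga2, were the other large 5p group. let-7c-5p was at 3681 and 881 CPM with D1320A and 169 and 21.3 CPM with D1709A. let-7i-5p was at 2599 and 927 CPM against 39.0 and 21.4 CPM, and let-7b-5p at 2248 and 699 CPM against 34.4 and 31.8 CPM. These 3 were 23.96-fold, 58.4-fold and 44.5-fold higher with D1320A, with edgeR adjusted p of 0.00157, 0.000254 and 0.000484.

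The largest folds were found on arms of lower level, some minor and some major with hsDicer. miR-27a-5p was at 893 and 376 CPM with D1320A and 0.781 and 1.26 CPM with D1709A, 623-fold higher (edgeR adjusted p = 6.03e-06). miR-365-5p was at 443 and 319 CPM against 0.703 and 0.579 CPM, 594-fold higher, and miR-29a-5p at 289 and 113 CPM against 0.703 and 0.290 CPM, 405-fold higher. miR-25-5p was at 119 and 40.7 CPM with D1320A and had no read with D1709A, at least 618-fold higher against 3 reads over the pair of libraries. miR-466c-5p had 508 and 988 reads with D1320A and 0 and 3 with D1709A. In the other direction, miR-139-3p had no read with D1320A and was at 25.5 and 174 CPM with D1709A, at least 906-fold higher. miR-582-3p (58.8 and 12.3 CPM with D1709A) and miR-1198-3p (26.6 and 44.3 CPM) also had no D1320A read, and each was at least 323-fold higher with D1709A. miR-30d-3p had 1 and 1 reads with D1320A and 1778 and 730 with D1709A, miR-18-3p had 3 and 1 against 2273 and 1083, and miR-669f-3p had 1 and 0 against 595 and 364. The only 3p arm called higher with D1320A was miR-3473b-3p, with 121 and 391 reads against 0 and 0, at least 155-fold higher, and its reads also match an RNA of another class.

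Read by family, the let-7 family had 7 of 9 tested 5p arms called higher with D1320A, with a median log2 difference of 5.29, and 1 of 9 tested 3p arms, let-7d-3p, called higher with D1709A (median -2.28). let-7g-5p was not called, at 44.1 and 8.30 CPM against 1.72 and 1.06 CPM. The 6 let-7 names whose precursors all carry a 1-base 3′ overhang after Drosha (group II) gave 5 of 6 and 1 of 6. Of the growth-linked miR-17-92 cluster and its paralogs, 4 of 9 tested 5p arms were called higher with D1320A (median 5.91) and 3 of 9 tested 3p arms higher with D1709A (median -4.04). miR-92-3p, the usual arm of its hairpin, was at 16.4 and 4.44 CPM with D1320A and 860 and 105 CPM with D1709A, and miR-92-5p at 285 and 113 CPM against 2.81 and 1.26 CPM. The 4 members miR-106a, miR-18b, miR-20b and miR-363 were at 0.

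Of the miR-23, miR-27 and miR-24 group, 3 of 5 tested 5p arms (miR-24, miR-27a and miR-23a) and 2 of 5 tested 3p arms (miR-24 and miR-27b) were called. miR-27b-3p was at 0.530 and 0.329 CPM with D1320A and at 45.9 and 50.9 CPM with D1709A. The miR-30 family gave 2 of 5 on each arm: miR-30a-5p was at 933 and 258 CPM against 13.9 and 4.63 CPM, and miR-30a-3p at 0.397 and 4.02 CPM against 139 and 47.7 CPM. The miR-29 family gave 1 of 3 on the 5p arm and 2 of 3 on the 3p arm, with medians of 8.06 and -6.81. miR-29a-3p was at 65.1 and 41.1 CPM with D1320A and 1050 and 334 CPM with D1709A, a difference of 13.0-fold. Of the 20 mesenchymal miRNAs, 9 5p arms and 10 3p arms were called, each in the direction of its arm. The shares in these lists stand beside 23.5% and 23.9% for all 5p and all 3p arms, and abundant miRNAs pass the test more easily, so nothing particular to a list is read from them.

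Some precursors reach or leave Dicer by other routes. miR-320-3p, from a capped precursor that needs Dicer but not Drosha, was at 3.38 and 2.87 CPM with D1320A and at 107 and 91.2 CPM with D1709A, 31.7-fold higher with D1709A (edgeR adjusted p = 0.0417), against 993 and 172 CPM with hsDicer. miR-484, of the same kind, was read from its 5p arm. It stood at 0.397 and 0.329 CPM with D1320A and at 21.5 and 12.6 CPM with D1709A, with no overlap, but did not pass the test (log2 difference -5.52 ± 3.36 SE, edgeR adjusted p = 0.221). miR-451a, which Argonaute 2 cuts in place of Dicer, had 107 and 46 reads with D1320A and 0 and 0 with D1709A and hsDicer (edgeR adjusted p = 0.272). It was not found with D1320A alone. Its level was 7.08 and 3.78 CPM with D1320A and 0 and 2.82 CPM in the knockout, and replicate 2 of the double mutant also held reads of it. miR-1224, miR-702 and miR-668 were at 0. miR-21a-5p, an abundant miRNA of activated fibroblasts, was at 5038 and 2964 CPM with D1320A and at 1025 and 702 CPM with D1709A, a difference of 4.63-fold that was not called (log2 difference 2.21 ± 1.01 SE, edgeR adjusted p = 0.0924). The same arm was at 3274 and 817 CPM in the knockout and 2583 and 1387 CPM with the double mutant, so the D1709A values were within or below the background of miR-21a-5p.

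The balance of arms within a hairpin removes differences in scale between libraries. 234 hairpins with 20 or more reads were tested for the ratio of 5p to 3p reads. 40 of them, 17.1%, had a higher ratio with D1320A in edgeR's quasi-likelihood test, and 0 had a higher ratio with D1709A. These calls were fragile: 0 were left without D1709A replicate 1, 0 without D1709A replicate 2 and 0 in a fit over all 16 libraries, while limma with pseudocounts of 0.5 and 5 called 87 and 109 with a higher ratio in D1320A and 1 in the other direction with either. Over 70 hairpins with 50 or more reads in each of the 4 libraries, the median 5p share stood at 99.0% in both D1320A libraries and at 5.34% and 8.44% in the D1709A libraries. The 5p share was higher in both D1320A libraries than in both D1709A libraries for 57 of the 70. It was 90% or more in both D1320A libraries for 54, 10% or less in both D1709A libraries for 30, and both at once for 18.

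**Figure D2:**
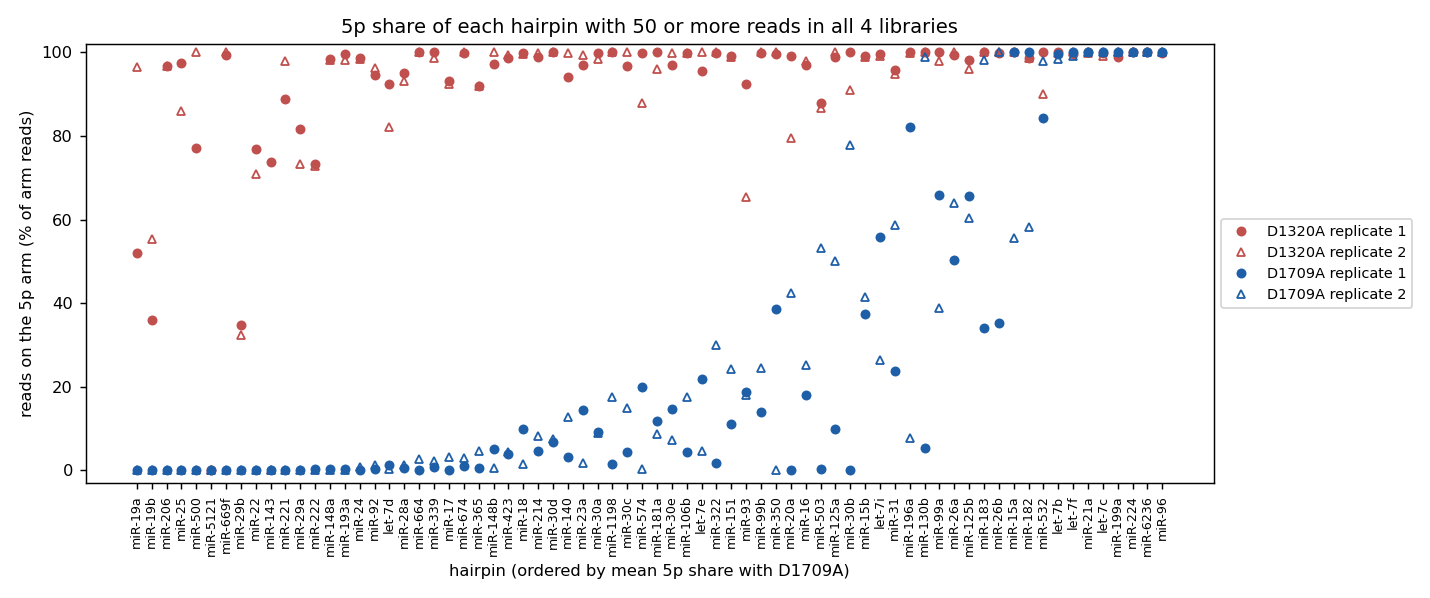
Percent of the arm reads of a hairpin that lie on its 5p arm (vertical axis) for the 70 hairpins with 50 or more reads in all 4 libraries, ordered along the horizontal axis by the mean share with D1709A. Filled circles are replicate 1 and open triangles replicate 2; D1320A points (red) are near the top for most hairpins, D1709A points (blue) start near 0 and rise to meet them at the right, where miR-21a, let-7c and miR-96 lie.

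The hairpins with most reads show 3 kinds of behaviour. miR-24, let-7d and miR-22 switched arms. miR-24 gave 98.7% and 98.5% 5p reads with D1320A and 0.158% and 0.879% with D1709A (log2 ratio difference 14.16 ± 2.75 SE, edgeR adjusted p = 1.25e-05), and let-7d gave 92.4% and 82.2% against 1.302% and 0.327% (edgeR adjusted p = 3.77e-05). miR-22, whose 5p arm is 0.433% and 0.370% of its reads with hsDicer, gave 76.8% and 70.8% 5p reads with D1320A and 0.00224% and 0.0425% with D1709A (edgeR adjusted p = 0.0122). miR-29b moved as far on the log scale (log2 ratio difference 13.94 ± 3.45 SE, edgeR adjusted p = 0.000802), yet its 5p share with D1320A stayed at 34.7% and 32.5%, against 0.000431% and 0.0143% with D1709A.

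A second kind switched only in part with D1709A. miR-99b had 99.93% and 99.99% 5p reads with D1320A and 14.04% and 24.6% with D1709A (edgeR adjusted p = 4.29e-06). let-7i had 99.6% and 99.2% with D1320A and 55.9% and 26.4% with D1709A (edgeR adjusted p = 0.00101), and miR-31 had 95.8% and 94.8% against 23.9% and 58.7%, a difference that was not called (edgeR adjusted p = 0.097). The remaining kind stayed on the 5p arm with both mutants. miR-21a had 99.97% and 99.8% 5p reads with D1320A and 100% and 99.97% with D1709A, let-7b had 100% and 99.8% against 99.5% and 98.5%, and let-7c had 99.95% and 99.1% against 100% and 100%. None of the 3 was called, with edgeR adjusted p of 0.524, 0.107 and 0.282. Their 5p shares were 99.8% or more with hsDicer too, so these shares could hardly show a switch of arms. A p above the threshold does not show that the mutants treat these hairpins alike, since the 5p reads themselves were fewer with D1709A.

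Departures from the rule were counted directly. A hairpin was taken to escape with a mutant when it had 50 or more reads in both libraries and the arm that should be lost held 50% or more of them in both. With D1320A, 7 of 120 hairpins escaped (5.83%). Of these, miR-3473b, miR-5121 and miR-677 consisted of reads that also match another RNA class, which leaves 4. miR-29b led them, with 65.3% and 67.5% 3p reads (exact 95% binomial intervals 63.3% to 67.3% and 63.8% to 71.1%) at 99.9 and 36.9 CPM. The same arm was at 124 and 219 CPM in the knockout and 265 and 174 CPM with the double mutant, and the D1320A level was 0.214% of that with hsDicer. miR-690 (3.77 and 12.5 CPM) and miR-3473f (4.10 and 4.43 CPM) were likewise not above all knockout and double mutant libraries. miR-6240 was the only one of the 7 that was, at 24.8 and 9.20 CPM against at most 4.13 CPM in the knockout and 3.10 CPM with the double mutant. With D1709A, however, its 3p arm was at 52.4 and 0.193 CPM. miR-6240, miR-690 and miR-3473f had no 5p read with either mutant, so their shares could not show a switch of arms. Just outside the limit stood miR-19b, with 64.02% and 44.8% 3p reads, and miR-222, with 26.6% and 27.2%.

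With D1709A, 14 of 86 hairpins escaped (16.3%). They were miR-21a, let-7c, miR-125b, miR-96, miR-532, miR-6236, miR-199a, miR-182, let-7b, miR-224, miR-484, miR-26a, let-7f and miR-15a. The 10 with most reads include miR-96, with 100% 5p reads at 60.3 and 54.5 CPM, miR-125b, with 65.6% and 60.3% at 124 and 34.6 CPM, and miR-532, with 84.2% and 97.9% at 61.3 and 36.3 CPM. miR-6236 had 100% at 63.98 and 18.8 CPM, miR-199a 100% at 17.8 and 59.2 CPM, and miR-182 100% and 58.3% at 59.5 and 5.79 CPM. miR-224 had 100% 5p reads at 13.8 and 31.2 CPM. No 3p read of miR-6236 or miR-224 was found with either mutant, so their shares could not show a switch of arms. miR-199a no longer escaped when reads shared with hairpins of other names were counted whole. The escaping 5p arms had a median of 2.79% of their hsDicer level, with a range of 0.504% (miR-26a) to 995% (miR-6236). Just inside the limit stood miR-26a, with 50.4% and 63.98% (exact 95% intervals 45.5% to 55.2% and 57.5% to 70.1%), and just outside stood miR-99a, with 65.9% and 38.8%, and miR-15b, with 37.3% and 41.4%.

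**Figure D3:**
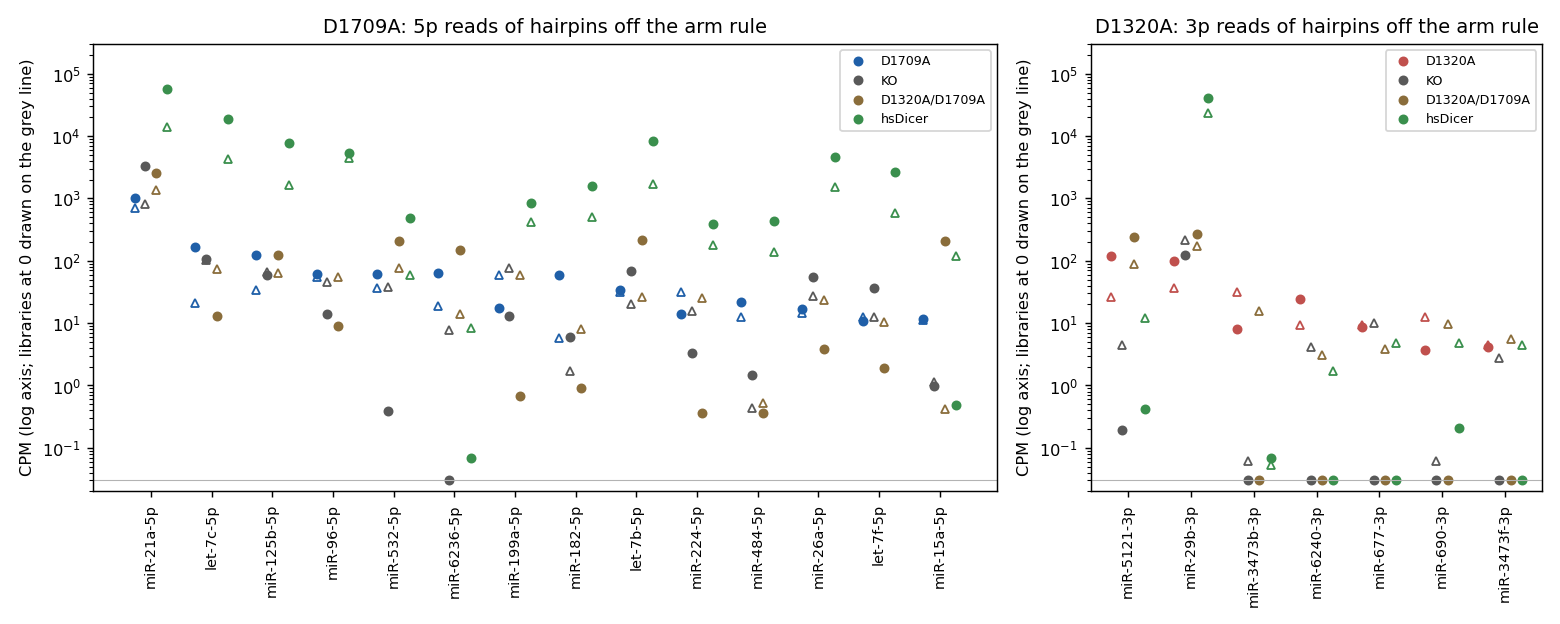
Level (CPM, log axis) of the arm that should be lost, for the 14 hairpins off the arm rule with D1709A (left) and the 7 with D1320A (right), beside the same arm in the knockout (KO), the double mutant and hsDicer. Filled circles are replicate 1 and open triangles replicate 2, and libraries at 0 are drawn on the grey line; miR-484 (left) and miR-6240 (right) are the hairpins whose mutant points lie above all knockout and double mutant points.

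Of the 14, miR-484 alone was above every knockout and double mutant library. Its 5p arm was at 21.5 and 12.6 CPM with D1709A, from 275 and 131 reads, against 1.45 and 0.438 CPM in the knockout and 0.364 and 0.526 CPM with the double mutant. With hsDicer it was at 438 and 138 CPM. The D1709A level was 5.93% of that with hsDicer. No 3p read of miR-484 was found with either mutant, so its share could not show a switch of arms. RefSeq gives this hairpin a single mature miRNA, shown here, and its arm was taken as 5p from its place in that annotation alone.
miR-484: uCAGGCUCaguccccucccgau
Beyond the escapes, the arm each mutant should lose was set against the same background. With D1320A, 19 of 155 tested 3p arms (12.3%) were above all 4 knockout and double mutant libraries in both replicates, against 111 of 200 tested 5p arms (55.5%). miR-31-3p led these 3p arms, at 183 and 143 CPM against at most 4.45 CPM in the knockout and 13.998 CPM with the double mutant. miR-29a-3p followed at 65.1 and 41.1 CPM, and miR-365-3p at 38.6 and 28.1 CPM, with no read in the knockout or the double mutant. With D1709A, 12 of 200 tested 5p arms (6%) were above the background, led by miR-99b-5p at 122 and 47.9 CPM and then miR-214-5p at 21.7 and 16.2 CPM, against 83 of 155 tested 3p arms (53.5%). Below all 4 libraries in both replicates were 4 of the 3p arms with D1320A and 1 of the 5p arms with D1709A. Most arms on the mutated side were thus neither above nor below the background, and for the rest no test was made. Arms entered these counts by their reads in the D1320A and D1709A libraries alone, and reads in the knockout and the double mutant played no part. An arm read mainly with a single mutant could therefore be included without any read in the background. The shares above the background rest in part on that choice and are descriptions only.

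Usual and minor arms were then looked at apart. Of 40 hairpins read 90% or more from the 5p arm with hsDicer, 15 of 40 tested 5p arms were called higher with D1320A (median log2 difference 4.47), and 6 of 32 tested 3p arms higher with D1709A (median -2.49). Of 16 hairpins read 90% or more from the 3p arm, 5 of 12 tested 5p arms were called higher with D1320A (median 7.06) and 11 of 16 tested 3p arms higher with D1709A (median -6.05). Across every arm tested, the same calls came to 23.5% on the 5p side and 23.9% on the 3p side. Only the 6 of 32 lies below its share. Abundant arms pass the test more easily, so nothing particular to usual or minor arms is read from these counts. Some minor arms exceeded their level with the unchanged enzyme. In both D1320A libraries 7 of 12 such 5p arms were above both hsDicer libraries, namely those of miR-193a, miR-29a, miR-222, miR-148a, miR-221, miR-328 and miR-101b. miR-193a-5p was at 442 and 301 CPM with D1320A against 0.208 and 19.5 CPM with hsDicer and 2.03 and 0.193 CPM with D1709A. In both D1709A libraries 8 of 32 minor 3p arms were above both hsDicer libraries, among them miR-31-3p, miR-15b-3p, miR-30d-3p and let-7i-3p. Minor arms were picked by their low share with hsDicer, and those tested needed 20 reads over the 4 mutant libraries. The counts above hsDicer rest in part on that choice and are descriptions only.

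The seeds present in the cells changed with the arms. A single RefSeq seed could be assigned to 266 of the 355 tested arms. The let-7 seed GAGGUAG, shared by 9 let-7 and miR-98 5p arms, held 22.5% and 13.7% of miRNA reads with D1320A and 0.405% and 0.253% with D1709A. The miR-22-3p seed AGCUGCC held 0.511% and 0.625% with D1320A, against 46.8% and 64.3% with D1709A. For comparison, the miR-29 seed AGCACCA, shared by 3 3p arms, held 0.358% and 0.361% against 25.8% and 13.5%. The miR-99 and miR-100 seed ACCCGUA held 10.7% and 9.07% with D1320A and 0.183% and 0.151% with D1709A, and the miR-31-5p seed GGCAAGA held 9.10% and 12.1% against 0.124% and 0.323%. The miR-21a seed AGCUUAU, the only one among the 5 leading seeds of both mutants, held 10.9% and 13.7% with D1320A, against 1.38% and 1.88% with D1709A. The 5 leading seeds of D1320A held 58.1% and 54.6% of its miRNA reads and 2.10% and 2.64% of those with D1709A. The 5 leading seeds of D1709A held 83.6% and 86.8% of its reads and 11.9% and 14.9% of those with D1320A, most of it from the miR-21a seed. The groups did not overlap for any of the 6 seeds spelled out here.

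Precursors cut on 1 strand were then sought as longer reads, which span the loop. A read of the loop with the 3p arm starts no more than 2 nt before the usual cut of the 5p strand. It also starts 5 nt or more before the usual 3p start and reaches 15 nt or more into the 3p arm. Starts well inside the loop are therefore counted too. A read of the 5p arm with the loop starts at the usual 5p start and runs 5 nt or more past the usual 5p end. For miR-31, the hairpin with most of both, the expected products from RefSeq and the usual ends are shown with the arm in capitals. The capitals of the first product are the 3p arm and those of the second the 5p arm.
Mir31 loop with 3p arm: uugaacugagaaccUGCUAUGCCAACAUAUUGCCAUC
Mir31 5p arm with loop: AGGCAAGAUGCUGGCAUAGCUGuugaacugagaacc
Both are short enough to be seen in these libraries, which were cut from a gel at 15 to 50 nt. The read length shows whole inserts of at most 36 nt in replicate 1 and of at most 46 nt in replicate 2, so longer reads of replicate 1 show no end, and a loop with 3p arm from the usual cut can be recognised there only for loops of up to 22 nt.

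Reads of the loop with the 3p arm were a product of the D1320A libraries. There were 601826 and 176265 of them with D1320A and 892 and 515 with D1709A. In CPM that is 39845 and 14476 against 69.7 and 49.7, a 455-fold difference of means (27161 ± 17939 against 59.7 ± 14.1, SD, n = 2). The exact permutation p was 0.333, the smallest possible. hsDicer gave 3.19 and 85.7 CPM, the knockout 7.36 and 149 CPM and the double mutant 315 and 145 CPM. There were 88.9 and 69.3 such reads per 100 reads of free 5p arms with D1320A, and 35.0 and 27.5 without miR-31, the hairpin with most of them. Of these reads, 73.1% and 78.0% started exactly at the usual cut of the 5p strand, and 93.3% and 95.1% within 2 nt of it. In replicate 2, where the end was seen for all but 3.21%, the commonest length was 37 nt, with 98898 reads.

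Hairpin by hairpin, edgeR called 69 of 272 loop-joined products of both kinds, 25.4%. Of these, 65 of 135 tested loop with 3p arm products were called higher with D1320A by edgeR's quasi-likelihood test, 48.1%, and 0 were higher with D1709A. In 62 of the 65 the groups did not overlap. The count moved with the libraries used: 22 were called without D1320A replicate 1, 21 without D1320A replicate 2, 2 without D1709A replicate 2 and 51 without D1709A replicate 1. miR-31 gave 387134 and 115150 reads with D1320A, 64.3% and 65.3% of the total, and 134 and 225 with D1709A (log2 difference 10.09 ± 0.89 SE, edgeR adjusted p = 2.53e-24). Without miR-31 the sum was still 221-fold higher with D1320A, at 14214 and 5019 CPM against 59.2 and 28.0 CPM. miR-16, which restrains cell division genes, gave 43924 and 12784 reads against 9 and 5, and miR-30a gave 16704 and 3132 against 6 and 4. miR-671 gave 10249 and 5314 against 116 and 129, let-7c 9677 and 4081 against 4 and 1, and miR-140, a cartilage miRNA, 9294 and 2279 against 1 and 3. miR-151 gave 7679 and 2733 against 6 and 0. miR-186 gave 8298 and 1027 reads with D1320A and none with D1709A, at least 2446-fold higher. All 8 were called, with edgeR adjusted p from 2.53e-24 (miR-31) to 0.000193 (miR-671). Because starts inside the loop are counted, the counts of a single hairpin do not place its reads at the usual cut. With D1320A, 89.4% of the let-7c reads with a visible end were 33 nt long, and 48.5% of those of miR-671 were 29 nt.

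Hairpins differed widely in how much of the joined product they left. Over 31 hairpins with 1000 or more 5p reads in both D1320A libraries and a loop within the limit of replicate 1, the loop with 3p arm numbered a median of 44.6 and 24.2 reads per 100 5p reads. The lowest values were 0.378 in replicate 1 and 0 in replicate 2, and the highest 647 and 428. It outnumbered the free 5p arm in both libraries for 3 hairpins, with values of 611 and 361 for miR-31, 380 and 187 for miR-16 and 647 and 428 for miR-671. It stayed under 5 per 100 in both for 5 hairpins: miR-21a (1.06 and 1.59), miR-99b (0.378 and 0.167), miR-182 (2.05 and 3.11), miR-96 (0.653 and 1.20) and miR-183 (0.827 and 0). The last 3 come from 1 cluster. The order of the hairpins was alike in the replicates (Spearman 0.95 across these 31 hairpins), and its rank correlation with loop length was -0.143 and -0.189. The values include reads that start inside the loop. These are descriptions across hairpins of the same libraries, which are not independent replicates.

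Reads of the 5p arm with the loop were found with both mutants, and their ends told them apart. They numbered 107946 and 45720 with D1320A and 167109 and 83897 with D1709A, or 7147 and 3755 CPM against 13055 and 8100 CPM. The 1.94-fold difference of means, 5451 ± 2398 against 10578 ± 3504 (SD, n = 2), gave an exact permutation p of 0.333. The knockout held 6534 and 12346 CPM, which overlaps the values of both mutants. A read without a visible end cannot be told apart from an uncut hairpin, and 95.7% and 86.2% of these reads with D1320A and 52.1% and 54.0% with D1709A showed no end. Reads whose end was seen within 2 nt of the usual 3p start, where the 3p strand is cut, numbered 178 and 286 with D1320A, against 62258 and 27082 with D1709A. That is 0.165% and 0.626% of the 5p arm with loop reads with D1320A and 37.3% and 32.3% with D1709A, against 0.00444% and 0.276% in the knockout. In CPM the difference of means was 212-fold (17.6 ± 8.28 against 3739 ± 1590, SD, n = 2, exact permutation p = 0.333). Without miR-31 it was 25.8-fold.

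**Figure D4:**
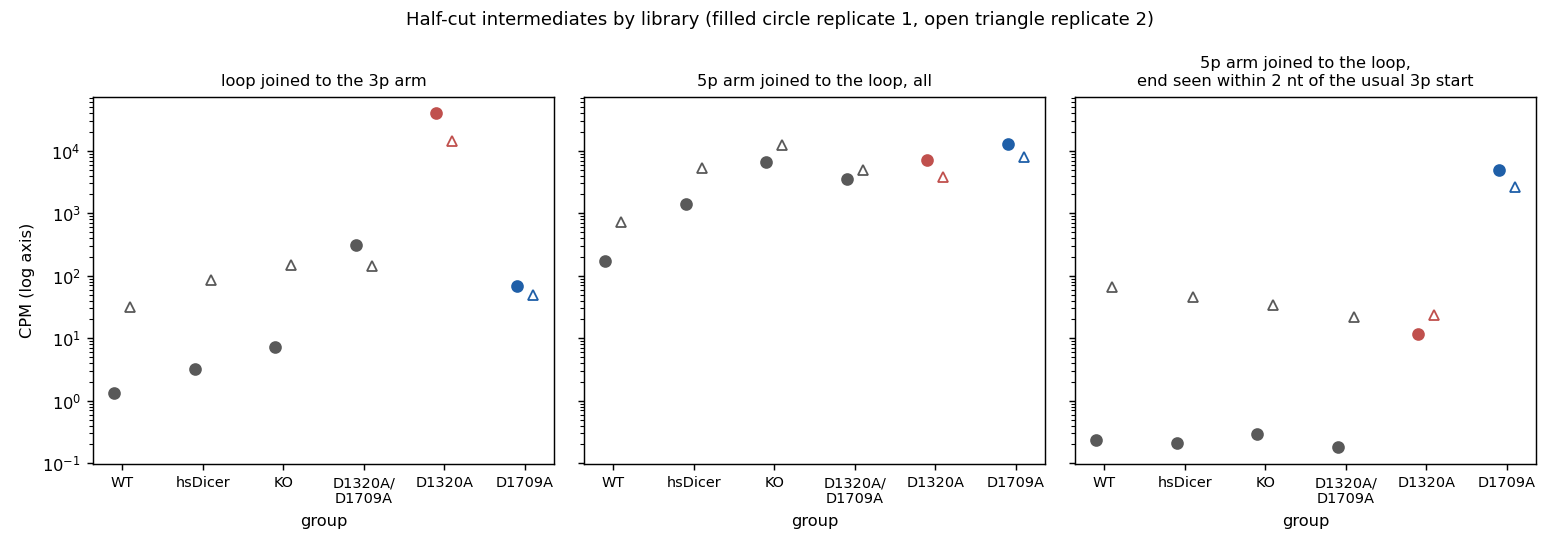
Summed CPM (log axis) of reads with the loop joined to the 3p arm (left), the 5p arm joined to the loop (middle) and the latter with its end seen within 2 nt of the usual 3p start (right), by group, with a filled circle for replicate 1 and an open triangle for replicate 2. On the left D1320A stands at 39845 and 14476 CPM above all other groups shown, and on the right D1709A does, at 4864 and 2615 CPM.

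Only 4 of 137 tested 5p arm with loop products, 2.92%, were called higher with D1709A, and 0 were higher with D1320A. miR-31 gave 1430 and 1662 reads with D1320A and 68628 and 28931 with D1709A (log2 difference -5.14 ± 0.91 SE, edgeR adjusted p = 8.12e-07). Of the D1709A reads 57532 and 22756 ended within 2 nt of the usual 3p start. Of those with a visible end, 49.7% were 34 nt long, which is 2 nt short of the product shown for Mir31. miR-99b gave 162 and 0 reads against 2654 and 558 (edgeR adjusted p = 0.0251). The other called hairpins each rested on 1 library, with overlapping groups: miR-92 had 18 and 0 against 1279 and 4 reads, and miR-145a had 0 and 0 against 822 and 0. The next most read hairpins, miR-26b, miR-21a, miR-196b, miR-26a, miR-450b, miR-125b and miR-20a, were not called, with edgeR adjusted p of 0.855 or more. Of these miR-26b had 34284 and 13690 reads with D1320A and 29606 and 16273 with D1709A, none of which ended at the usual 3p start. miR-193a showed the product by its ends alone: 2204 and 996 reads with D1709A ended within 2 nt of the usual 3p start, against 0 and 1 with D1320A.

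**Figure D5:**
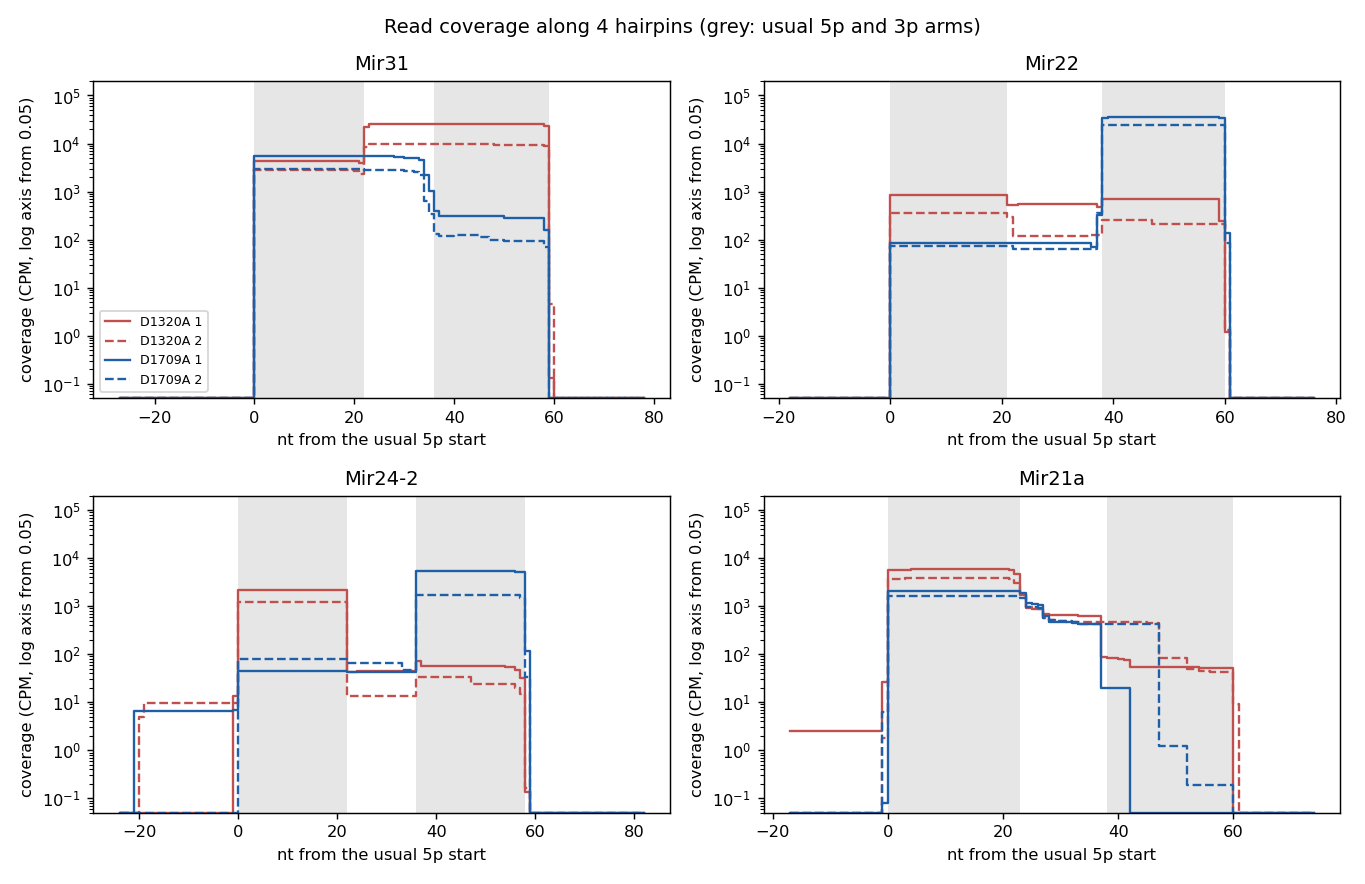
Read coverage (CPM, log axis from 0.05) along the hairpins of miR-31, miR-22, miR-24 (copy 2) and miR-21a, by distance in nt from the usual 5p start, with D1320A in red, D1709A in blue, replicate 2 dashed and the usual arms in grey; a read without a visible end is drawn to the last base seen. For miR-31 the D1320A lines stay high from the loop to the end of the 3p arm, and the D1709A lines from the start of the 5p arm to near the end of the loop.

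The products of the mutants were not equally frequent beside their free arms. The 5p arm with loop ending within 2 nt of the usual 3p start was set against free 3p arms. With D1709A it numbered 6.78 and 7.32 reads per 100 reads of free 3p arms. The loop with 3p arm numbered 88.9 and 69.3 reads per 100 reads of free 5p arms with D1320A. Both values fell without miR-31, to 0.517 and 1.17 with D1709A and to 35.0 and 27.5 with D1320A. The end rules of these ratios differ, and uncut ends that were not seen stay out of the first, so the 2 ratios are given side by side without a test. miR-31 made up 41.1% and 34.5% of the 5p arm with loop reads with D1709A, as it led the other product with D1320A.

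The site of the remaining cut was read from the arm ends. In 54 5p arms with 100 or more reads, a median of 75.9% and 71.2% of D1320A reads ended at the 3′ end most used in wild type, against 93.5% and 79.2% with hsDicer. The commonest end differed from that with hsDicer for 14 of the 54. miR-22-5p ended at its usual place in 41.3% and 19.5% of reads, against 99.9% and 65.3% with hsDicer, and most often 1 nt further on. miR-30a-5p did so in 7.04% and 13.2% of reads, against 84.3% and 76.9%, and most often ended 1 nt earlier. In replicate 1 of hsDicer some arms had nearly all reads at a single other end (miR-15b-5p, 0.0257% at the usual one), so part of the 14 rests on that library. The Drosha-made 5′ start was kept by a median of 98.8% and 99.8% of D1320A reads. In 26 3p arms, a median of 98.0% and 98.7% of D1709A reads started at the usual place. The commonest start differed from that with hsDicer for 4: miR-140, miR-16, miR-29a and miR-652. For miR-16 and miR-652 the commonest start with D1709A was the usual one. Their difference rests on replicate 1 of hsDicer, with 0.155% and 0.0578% of reads at the usual start. Since the start of a 3p arm sets its seed, the seed of most 3p reads with D1709A was the usual one.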

How the data were processed

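The values deposited by the authors are read counts, 1 line for each different sequence, neither trimmed, aligned nor scaled, as the files themselves show. The tools of that step are not named in the labels. The 3′ adapter given in the labels' protocol was removed (12 bases matched, or at least 5 at the read's end). Only perfect matches of 18 to 26 nt inserts counted, to 1174 miRNA hairpins of GENCODE M21 (GRCm38), arms were set by RefSeq mature positions or the hairpin midpoint, and reads shared by hairpins of different names were left out. Library size was the number of inserts of 15 nt or more.

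Levels, 5p to 3p ratios (arm by group interaction, library as block) and loop-joined reads were tested over the 4 libraries with edgeR 4.0.16's quasi-likelihood test, 2-sided, Benjamini-Hochberg adjusted p under 0.05. The spread was taken wholly from the fitted trend, with biological coefficients of variation of 1.53, 1.18 and 1.70. Standard errors are approximate, from the log2 change and the root of F. Single values were compared by exact permutation. Usual ends were those most used in wild type, or RefSeq's where wild type had under 10 reads. Alternatives used limma 3.58.1 and DESeq2 1.42.0 in R 4.3.3. Counting used Python 3.11.15 with pandas 2.3.3, numpy 2.4.6 and scipy 1.17.1, and matplotlib 3.10.9 drew the plots. On simulated counts with the spread of these data, changes of 4-fold to 256-fold were tried. The level test recovered most changes only at 256-fold, and the ratio test recovered none. Simulated ratios started from an even split of the arms, and their changes were smaller than most ratio differences called here. How often changes of the called size would be recovered was therefore not tested.

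The mutants, members and lists were chosen with earlier results of these data known. Arms named are the 10 called arms with the highest mean CPM, the 6 highest by fold each way among called arms of 10 CPM or more, the 10 hairpins with most reads, all hairpins off the arm rule (10 with most reads where there are more), the 8 hairpins with most reads of each loop-joined product, miR-451a, miR-320, miR-484, miR-21a and miR-22, and 2 to 4 members of a list. Others, such as miR-193a, miR-31-3p and the arms set against the background, were named after their values were seen. The lists were the let-7 family and its group II, miR-17-92 with paralogs, mirtrons and capped precursors, miR-451a, miR-29, miR-23/27/24, miR-30 and the markers of cell types.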

Additional observations from a re-analysis of the deposited data

Results flagged for a closer look

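Freed terminal loops are short reads that lie between the usual cuts and belong to no comparison above. Only reads of 20 nt or more were searched, so loops such as the 14 nt loop of Mir31 could not be counted. Freed loops of this length were above the knockout and double mutant level for 2 let-7 hairpins in both D1320A libraries. For let-7f this held in 1 of them. The let-7c loop reached 49.7 and 27.1 CPM with D1320A (751 and 330 reads), against 1 and 0 reads with D1709A, 1 and 0 in the knockout and 0 with hsDicer. The let-7a loop reached 33.5 and 5.34 CPM (506 and 65 reads), with no read with D1709A, in the knockout or with hsDicer. The let-7f loop reached 2.65 CPM in replicate 1 of D1320A (40 reads) and had no read in replicate 2, against 1 read in replicate 2 of the double mutant. Summed over hairpins, freed loops of this length numbered 1297 and 395 reads with D1320A and 1 and 0 with D1709A. There were also 232 in replicate 2 of wild type and 85 in replicate 2 of hsDicer. Replicate 2 of the PAZ domain mutant Y971A/Y972A held 508, which included 47 of let-7c and 43 of let-7f. A freed loop has an end at each of the usual cuts. The source of these reads with D1320A was not tested.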

How the results depend on the processing

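Of the alternatives, library size without adapter products, the versions of escapes, ratios and loop-joined reads without other-class hairpins, without miR-31, with shared reads whole or with ends at the usual cut, and the block and leave-one-out fits of loop-joined reads were chosen after seeing the data. Of 85 arms called, a fit over all 16 libraries called 11 (7 of 5p higher with D1320A, 4 of 3p higher with D1709A), DESeq2 134 (24 and 107) and limma-voom 27 (16 and 11), and TMM called 59 3p arms higher with D1709A. DESeq2 also called 2 5p arms higher with D1709A. The single 3p arm higher with D1320A became 0 with all 16 libraries, TMM, limma-voom and no filter, and 5 with reads of 15 to 30 nt and up to 2 unmatched bases. With 1 library left out, 39 (without D1320A replicate 1) to 101 arms were called, 19 to 56 of 5p and 12 to 57 of 3p in the usual direction and 0 to 1 of 3p in the other. Of the 40 ratios, 0 were called with all 16 libraries, 87 and 109 with limma at pseudocounts of 0.5 and 5 (and 1 and 1 in the other direction), and 0 to 32 with 1 library left out (0 to 1 in the other direction). Of the loop-joined products, 2 to 51 with the 3p arm (65 in the full fit) and 1 to 5 with the 5p arm (4) were called with 1 library left out. With the replicate block, 103 arms, 35 ratios, 51 loops with 3p arm and 2 5p arms with loop were called; same-numbered libraries deviated together with r = 0.042 over 355 arms in only 2 pairs, so the numbers were not taken to pair them. The difference of 92.8 points in 5p share became 86.8 with the relaxed reads and 86.7 without each library's most read hairpin, and 92.3 to 93.3 with 1 library left out. The difference in insert share ranged from -4.06 to -0.36. Hairpins off the rule fell from 7 to 2 (D1320A) and from 14 to 8 (D1709A) at 200 reads, and to 4 with D1320A without other-class hairpins. The log2 ratio of the 5p arm with loop, -0.96, became -7.73 when the end had to lie within 2 nt of the usual cut. miR-451a-5p reversed to -0.35 with the relaxed reads, and miR-21a-5p to -0.15 with DESeq2. The cause of these changes was not tested. With 2 libraries a group no exact test could reach 0.05, and arms of few reads rest on the fitted trend.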
